A study of Rattus norvegicus with 16 samples.

Results

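The comparison described here sets 5 rat right ventricles labelled RVF+ directly against 4 labelled RVF, so that 9 of the 16 arrays of the study enter it, across 17245 genes. The 9 arrays were chosen by the condition in their labels, with earlier results of these data known. Every sample was total RNA (500 ng) of the right ventricular wall, taken from male rats of the Wistar strain that weighed 160 to 180 g, and was hybridised to an expression array. Per the labels, the animals had either a sham operation or banding of the pulmonary artery, a constriction that makes the right ventricle pump against a raised pressure. The labels do not state which sample had which operation, and the names CON (7 arrays), RVF+ and RVF are used as given, without an expansion, and with the number from each sample's title (RVF+ 8 to 12, RVF 13 to 16). The title of the series concerns clinical symptoms of right ventricular failure, and the labels do not say which group showed them. Since the labels do not state whether the samples came from separate animals, the p-values speak of the variation among these samples, and part or all of it could be technical.

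A right ventricle under a lasting pressure load thickens its wall, takes up genes of the fetal heart program such as the natriuretic peptides, and lays down extracellular matrix. When the load outruns the muscle, the ventricle dilates or stiffens, ion channels and calcium-handling proteins are remodelled, and congestion, stress hormones and changes in the blood follow in the whole body. Cardiac genes depend on a set of transcription factors that act together, among them GATA4, NKX2-5 and myocardin, the coactivator of serum response factor.

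Each value is a log2 intensity, and a difference of 1 is a factor of 2. The probe set with the highest mean stood for a gene. Precision is limited by there being 5 and 4 arrays. Heart muscle markers were high on all 9 arrays. The mean of the 8 ventricular cardiomyocyte markers was 10.1 to 10.9 in RVF+ and 10.9 to 11.0 in RVF. The 4 lung epithelial markers were dim on average, with a mean of 3.20 to 4.26 in RVF+ and 3.35 to 3.42 in RVF. A list of 11 lung epithelium genes had a median difference of 0.10 between RVF+ and RVF, and of 0.13 without RVF+ 8. RVF+ 8 stood apart from the other arrays. On the first principal component of the 9 arrays, which held 43.9% of the variance, RVF+ 8 lay at 58.0 and the other 8 arrays between -16.1 and -1.67. RVF+ 8 was the highest or the lowest of the 9 arrays in 47.6% of genes, against 15.0% to 24.4% for each other array. On the second component, with 15.5% of the variance, RVF+ 9, 10 and 11 lay at 9.13, 27.8 and 8.17, and the 4 RVF arrays between -11.2 and -3.97. RVF+ 12, at -13.6, lay beyond the RVF arrays on that axis. The main counts and list medians below are given with and without RVF+ 8, as are part of the single genes. A gene's difference that is printed once includes RVF+ 8, and does not mean that it was the same without that array. Results that turn on RVF+ 12 are named. The comparison without RVF+ 8 was planned beforehand, with earlier results of these data known.

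**Figure D1:**
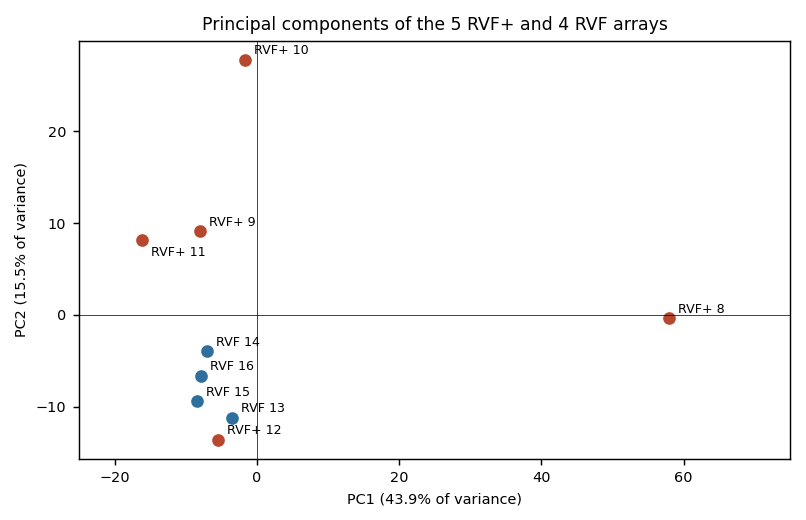
First (horizontal) and second (vertical) principal component of the 5 RVF+ arrays (red) and the 4 RVF arrays (blue), from log2 intensities of 17245 genes. RVF+ 8 lies alone at 58.0 on the first axis, and RVF+ 12 at -13.6 on the second axis lies on the side of the RVF arrays while RVF+ 9, 10 and 11 lie at 8.17 or above.

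No gene differed between RVF+ and RVF at an adjusted p under 0.05 in limma's moderated test with Benjamini-Hochberg adjustment over all 17245 genes. That makes 0% called in either direction, with the 5 RVF+ arrays and also without RVF+ 8, where the smallest adjusted p was 0.289 and 0.172. At an unadjusted limma p under 0.05 there were 507 genes with a higher mean in RVF+ (2.94%) and 735 with a lower one (4.26%), and without RVF+ 8 there were 621 (3.6%) and 744 (4.31%). The words higher and lower below therefore describe group means, and every p printed for a gene is adjusted over all genes. Against CON, 14.1% of genes rose and 13.6% fell in RVF+, and 8.86% rose and 8.29% fell in RVF, at an adjusted p under 0.05. Leaving out RVF+ 12 alone brought 3 genes past the adjusted threshold, Ace, Ndrg1 and Slc28a2, all higher in RVF+, each at an adjusted limma p of 0.0376.

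Differences were small for most genes. The median size of the difference was 0.09 on the log2 scale and the 95th percentile was 0.34. At least 1.5-fold differences between the group means were seen for 109 genes higher in RVF+ (0.632%) and 53 lower (0.307%), and of these 162 genes 85 were also past that size, in the same direction, without RVF+ 8. Complete separation, with every RVF+ array above or every RVF+ array below all 4 RVF arrays, was seen for 101 genes higher in RVF+ (0.586% of all genes) and 199 lower (1.15%). With each array centred on its own median, those counts were 69 and 246. Without RVF+ 8 they were 234 (1.36%) and 331 (1.92%), and without RVF+ 12 they were 245 and 578. The separated genes had median differences of 0.26 among those higher and -0.29 among those lower. Only 28 of the 162 genes past 1.5-fold were separated.

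The spread was wider in RVF+. The median standard deviation over genes was 0.19 in RVF+, 0.16 without RVF+ 8, 0.14 in RVF and 0.15 in CON, and 70.6% of genes varied more in RVF+ than in RVF (58.8% without RVF+ 8). For 18.4% of genes the sign of the difference turned when RVF+ 8 was left out. The distance from the controls overlapped between the groups. As a root mean square over all genes, an RVF+ array differed from the CON mean by 0.449 ± 0.153 (SD, n = 5). For an RVF array this distance was 0.378 ± 0.0279 (SD, n = 4), and the two-sided exact permutation p was 0.556. Without RVF+ 8 the distance was 0.384 ± 0.0502 (SD, n = 4) in RVF+, with an exact permutation p of 0.914. Among separated genes the CON mean often lay between the RVF and the RVF+ mean. That was so for 53 of the 101 genes separated higher (52.5%) and 89 of the 199 separated lower (44.7%), against 18.1% and 17.9% of all genes with a mean higher or lower in RVF+. Among genes separated without RVF+ 8, by the means of all arrays, it was 42.7% and 36.6%. Separated genes were selected for a gap between RVF+ and RVF, so part of the contrast with all genes is built in.

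**Figure D2:**
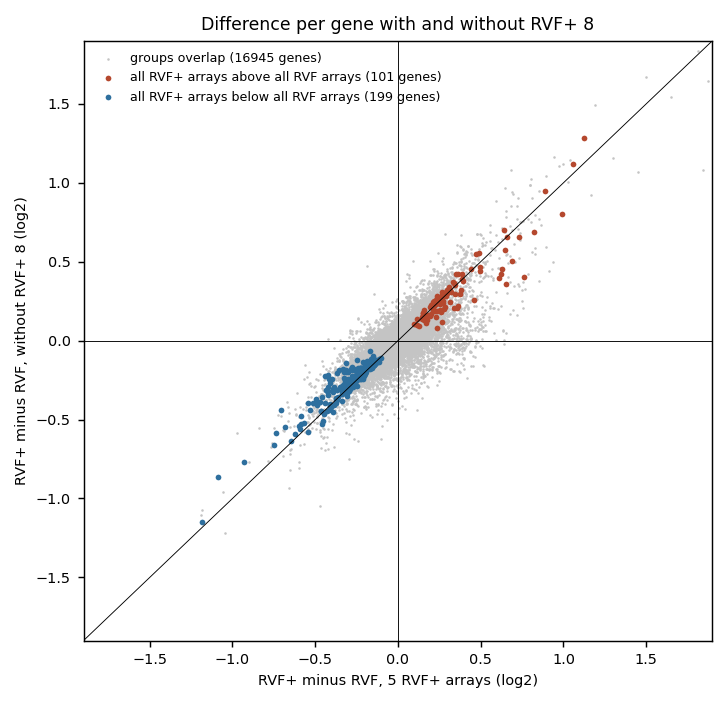
Difference of each gene between RVF+ and RVF on the log2 scale, with the 5 RVF+ arrays (horizontal) and without RVF+ 8 (vertical), for 17245 genes. Red marks the 101 genes with all RVF+ arrays above all RVF arrays, blue the 199 with all of them below, and the diagonal marks equal differences. The median difference was 0.26 among the red genes and -0.29 among the blue ones.

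Of 53 gene lists, 22 had a median difference of more than 0.1 on the log2 scale in either direction, against -0.01 over all genes. In 10 of those 22 the median stayed beyond 0.1 in the same direction without RVF+ 8. The lists with the lowest medians that stayed beyond 0.1 without RVF+ 8 were heart muscle genes: ion channels and connexins (-0.31, and -0.16 without RVF+ 8), the cardiac stress programme (-0.20 and -0.32), calcium handling and adrenergic signalling (-0.18 and -0.11) and cardiac transcription factors (-0.18 and -0.11). The tricarboxylic acid cycle list, at -0.19, was as low with RVF+ 8 but stood at -0.06 without it. Those with the highest medians that held without RVF+ 8 were red cell genes (0.45 and 0.54), the glucocorticoid response (0.32 and 0.27) and endothelial markers (0.18 and 0.24). Cell cycle genes (0.32 and -0.08) and macrophage markers (0.37 and 0.09) were high through RVF+ 8. In whole tissue, fewer cells of a type and less RNA per cell cannot be told apart.

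**Figure D3:**
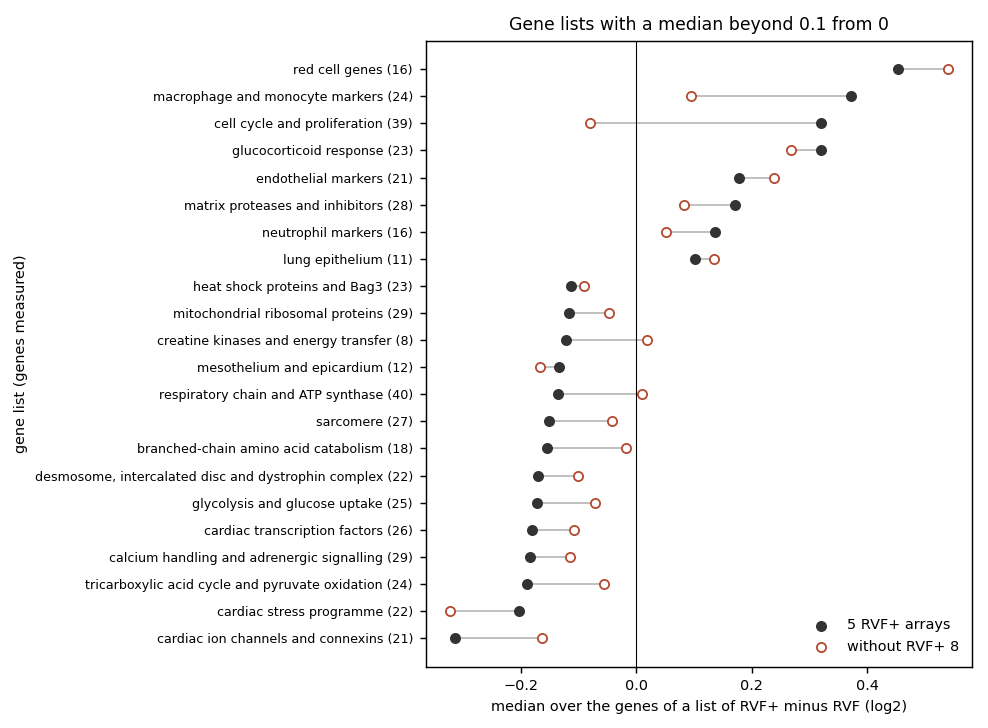
Median over the genes of a list of the difference RVF+ minus RVF (log2, horizontal), for the 22 lists with a median beyond 0.1, with 5 RVF+ arrays (filled) and without RVF+ 8 (open); the number of genes measured is in parentheses. The red cell list lies highest at 0.45, the ion channel list lowest at -0.31, and the cell cycle list crosses 0 when RVF+ 8 is left out.

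Cardiac transcription factors had lower means in RVF+ in 21 of 26 genes, where 51.8% of all genes had a lower and 48.2% a higher mean. Of the 26, 3 were separated lower, Myocd, Nkx2-5 and Gata4, beside 1.15% of all genes. Myocd, which encodes myocardin, read 8.15, 8.41, 8.14, 8.63 and 8.57 on RVF+ 8 to 12 and 8.96, 9.08, 9.06 and 8.78 on RVF 13 to 16. Every RVF+ array was below every RVF array. The difference was -0.59 ± 0.11 (SE; limma adjusted p = 0.289), and -0.53 without RVF+ 8. Myocd was also below the CON mean of 8.81 in RVF+ (-0.42, limma adjusted p = 0.00236), while the RVF mean was 0.16 above it (adjusted p = 0.295).

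Nkx2-5, a homeobox factor of the heart, read 7.83, 8.33, 8.22, 8.17 and 8.23 in RVF+ and 8.48, 8.51, 8.69 and 8.53 in RVF, again without overlap. Its difference was -0.40 ± 0.09 (SE; limma adjusted p = 0.403), and -0.32 without RVF+ 8. Against CON it fell by 0.54 in RVF+ (limma adjusted p = 7.95e-05), beside -0.14 in RVF (adjusted p = 0.29). Gata4, a zinc finger factor that acts with NKX2-5, read 8.31, 8.94, 8.61, 8.61 and 8.88 in RVF+ and 9.01, 9.15, 9.10 and 9.01 in RVF. The gap between the groups was narrow, from 8.94 to 9.01, and the difference was -0.40 ± 0.11 (SE; limma adjusted p = 0.403). It was -0.30 without RVF+ 8. Neither group passed the test against CON for Gata4.

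The Iroquois factors, which pattern gene expression across the ventricular wall, were lower without complete separation. Irx5 differed by -0.64 ± 0.20 (SE; limma adjusted p = 0.455), with RVF+ arrays up to 6.16 and RVF arrays from 5.79. Irx4, a marker of ventricular muscle chosen after its values were seen, differed by -0.39 ± 0.13 (SE; limma adjusted p = 0.495). The list also held 1 gene with a higher mean in RVF+ at an unadjusted p under 0.05, the forkhead factor Foxp1 (0.30, limma adjusted p = 0.542), likewise picked after its value was seen. Averaged over the 26 genes and set against CON, the list stood at -0.39, -0.11, -0.15, -0.10 and -0.12 on RVF+ 8 to 12 and at 0.02, -0.01, 0.08 and -0.04 on RVF 13 to 16. Of the 53 lists it was the one whose RVF+ and RVF arrays did not overlap, with or without RVF+ 8. Among 53 lists 1 can be apart by chance, so the list is described and not tested. The ventricular cardiomyocyte markers moved with it: none of the 8 had a higher mean in RVF+, and 2 of the 8 did without RVF+ 8, where their mean over genes was 10.7 to 10.9. Their part in the result was not tested.

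Ion channels and connexins, which carry the action potential from cell to cell, had lower means in RVF+ in 19 of 21 genes, beside 51.8% of all genes. At an unadjusted limma p under 0.05, 7 were lower, beside 4.26% of all genes. The pacemaker channels stood at the head of the list. Hcn4, the main channel of the pacemaker current in the sinus node, read 7.81, 6.83, 6.75, 7.07 and 7.13 in RVF+ and 8.61, 8.11, 8.30 and 7.64 in RVF. Only RVF+ 8 overlapped the RVF arrays. The difference was -1.05 ± 0.23 (SE; limma adjusted p = 0.403), or 2.07-fold, and -1.22 ± 0.21 without RVF+ 8 (limma adjusted p = 0.172). Against CON, at 7.18 ± 0.36 (SD, n = 7), Hcn4 rose by 0.99 in RVF (limma adjusted p = 0.00416), and the RVF+ difference was -0.06.

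Hcn2, a second pacemaker channel, read 6.66, 8.18, 7.57, 8.05 and 8.14 in RVF+ and 8.25, 8.44, 8.47 and 8.55 in RVF. The groups did not overlap, although RVF+ 9 and RVF 13 lay close together. The difference was -0.71 ± 0.22 (SE; limma adjusted p = 0.445) and -0.44 without RVF+ 8. Against CON the values were 0.83 in RVF (limma adjusted p = 0.00974) and 0.12 in RVF+ (adjusted p = 0.692).

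Repolarising potassium channels had their lowest means in RVF+. Kcnd3, a subunit of the transient outward current, fell against CON by 1.23 in RVF+ (limma adjusted p = 5.72e-06) and by 0.67 in RVF (adjusted p = 0.00347). Between RVF+ and RVF it differed by -0.56 ± 0.15 (SE; limma adjusted p = 0.403), with RVF+ 11 at 6.27 above RVF 13 at 6.19. Kcnj2, which sets the resting potential, differed by -0.53 ± 0.18 (SE; limma adjusted p = 0.529). A second probe set of Kcnj2, at a dim mean of 4.07, gave -0.03. The remaining separated genes of the list, Kcnh2 (-0.42) of the rapid delayed rectifier and Abcc8 (-0.44), the sulfonylurea receptor, were chosen after their values were seen. Their arrays differed most through RVF+ 8, and without it the values were -0.24 and -0.22. The 2 genes of the list with higher means, also picked afterwards, were the connexin Gja5 (0.39, limma adjusted p = 0.694) and Kcnj5 (0.11, and -0.03 without RVF+ 11).

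Cacna1a had the smallest p of all genes with the 5 RVF+ arrays, but not without RVF+ 8. It encodes the pore of the P/Q-type calcium channel, best known from nerve terminals, and was not on the cardiac lists. Its values were 5.18, 5.85, 5.43, 5.63 and 5.52 in RVF+ and 6.44, 6.27, 6.05 and 6.32 in RVF. The groups were apart, with a difference of -0.75 ± 0.13 (SE; limma adjusted p = 0.289), and of -0.66 without RVF+ 8. Against CON, at 5.26, the RVF arrays rose by 1.01 (limma adjusted p = 2.66e-05), and the RVF+ difference of 0.26 did not pass (adjusted p = 0.106).

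Calcium handling and adrenergic genes had lower means in RVF+ in 20 of 29 genes, with 3 separated lower, beside 51.8% and 1.15% of all genes. Adra1b, an alpha-1 adrenergic receptor, read 6.21, 7.01, 6.64, 7.13 and 7.02 in RVF+ and 7.28, 7.34, 7.46 and 7.30 in RVF. It was lowest in RVF+, with a difference of -0.54 ± 0.14 (SE; limma adjusted p = 0.403). In both groups it fell against CON, by 1.26 in RVF+ (limma adjusted p = 2.12e-06) and by 0.72 in RVF (adjusted p = 0.000979). Akap6, which anchors protein kinase A at the nuclear envelope and sarcoplasmic reticulum, differed by -0.53 ± 0.12 (SE; limma adjusted p = 0.403). Its RVF mean of 9.49 equalled the CON mean of 9.49, and RVF+ fell by 0.53 (limma adjusted p = 0.00129). Jph2, whose product ties the sarcoplasmic reticulum to the cell membrane, differed by -0.39 ± 0.11 (SE; limma adjusted p = 0.403). Without RVF+ 8 the difference was -0.40 for Adra1b, -0.44 for Akap6 and -0.30 for Jph2. The sodium-calcium exchanger Slc8a1 differed by -0.25 ± 0.09 (SE; limma adjusted p = 0.552), with overlapping arrays.

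**Figure D4:**
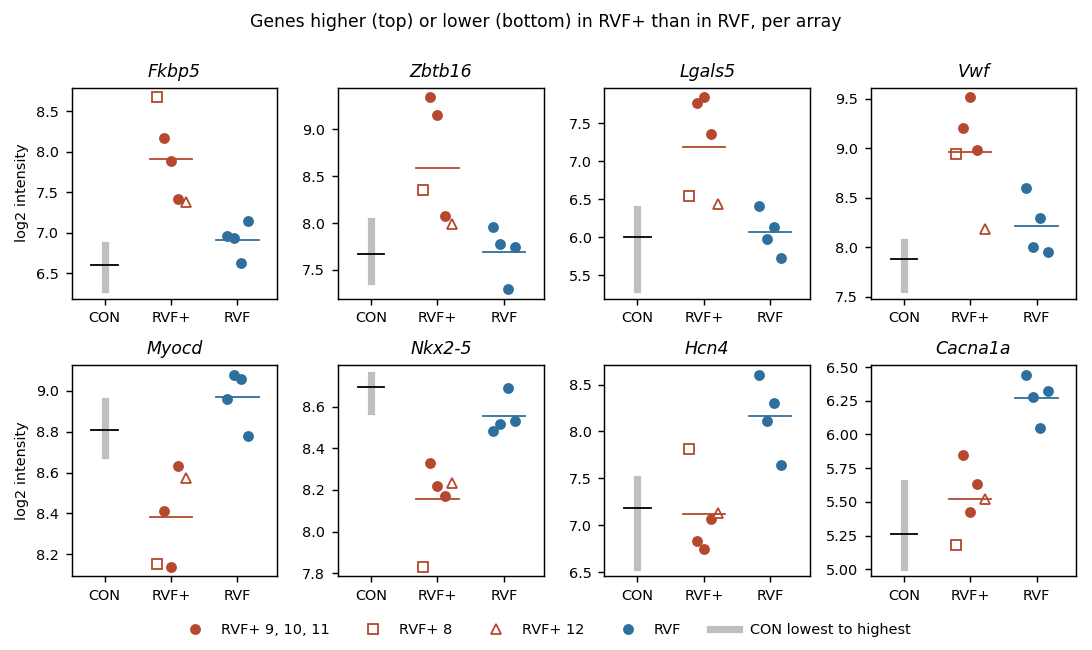
Log2 intensity per array (vertical) of 4 genes higher in RVF+ than in RVF (top) and 4 lower (bottom); points are arrays, with RVF+ 8 as an open square and RVF+ 12 as an open triangle, coloured lines are group means, and the grey bar with its black line spans the CON arrays and their mean. Fkbp5, Zbtb16, Lgals5, Myocd, Nkx2-5 and Cacna1a have no overlap, while Vwf overlaps through RVF+ 12 at 8.18 and Hcn4 through RVF+ 8 at 7.81.

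Sarcomere genes had lower means in RVF+ in 23 of 27 genes, but the median of -0.15 shrank to -0.04 without RVF+ 8. Over all genes 51.8% had a lower mean. Of the 27, 2 were separated lower, beside 1.15% of all genes, and Synpo2l had the larger difference. Synpo2l, a protein of the Z-disc, read 8.05, 8.32, 7.87, 8.15 and 8.52 in RVF+ and 8.75, 8.78, 9.02 and 8.55 in RVF. RVF+ 12 and RVF 16 were nearly level, and the difference was -0.59 ± 0.13 (SE; limma adjusted p = 0.403). Against CON it rose in RVF by 0.61 (limma adjusted p = 0.00194) and stood 0.02 above in RVF+. Actn2, the alpha-actinin of the Z-disc, differed by -0.21 ± 0.09 (SE; limma adjusted p = 0.622), and by -0.13 without RVF+ 8. Ttn, the giant spring protein titin, differed by -0.25 with overlapping arrays. Tpm3, a tropomyosin of slow muscle and non-muscle cells, went the other way, at 0.52 ± 0.15 (SE; limma adjusted p = 0.403), and in RVF+ it rose against CON by 1.07 (limma adjusted p = 1.37e-05). A second probe set of Tpm3, at a mean of 7.31, gave 0.18 between RVF+ and RVF. Dmpk, the kinase of myotonic dystrophy, was separated lower at -0.51 ± 0.12 (SE; limma adjusted p = 0.403), with RVF+ arrays from 9.41 to 10.14 and RVF arrays from 10.31 to 10.49. Without RVF+ 8 the Dmpk difference was -0.40.

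The cardiac stress programme had lower means in RVF+ than in RVF in 19 of 22 genes, although 17 of the 22 rose against CON in RVF+ and 16 in RVF at an adjusted limma p under 0.05 (14.1% and 8.86% of all genes rose). The 4 separated members were Nppa, Ankrd1, Myocd and Npr3. Over all genes 51.8% had a lower mean and 1.15% were separated lower. Npr3, the receptor that clears natriuretic peptides, read 7.66, 8.04, 8.19, 8.33 and 8.21 in RVF+ and 8.84, 8.45, 8.89 and 8.50 in RVF. Its difference was -0.59 ± 0.15 (SE; limma adjusted p = 0.403). Over CON it rose by 0.46 in RVF+ (limma adjusted p = 0.0144) and by 1.04 in RVF (adjusted p = 6.08e-05).

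Nppa, atrial natriuretic peptide, rose against CON by 4.26 in RVF+ and by 4.57 in RVF (limma adjusted p = 1.14e-05 and 1.73e-05). Its RVF+ arrays, from 11.53 to 12.16, were all below the RVF arrays, from 12.17 to 12.55. The gap between the groups was 12.16 to 12.17, and the limma adjusted p was 0.948, with a spread of 1.43 (SD, n = 7) among the CON arrays in that fit. Nppb, B-type natriuretic peptide, overlapped, with a difference of -0.07 ± 0.38 (SE; limma adjusted p = 0.986), and of -0.13 without RVF+ 8. Ankrd1, a stretch-responsive ankyrin repeat protein, differed by -0.10 ± 0.08 (SE), with RVF+ arrays between 12.62 and 12.64.

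Other stress genes were lower in RVF+ with overlap, and RVF+ 8 and 12 lay with or near the RVF arrays in them. Gdf15, a secreted stress cytokine, read 5.67, 4.94, 5.18, 5.02 and 6.04 in RVF+ and 6.52, 6.05, 5.75 and 5.53 in RVF. The low arrays were RVF+ 9, 10 and 11, and the difference was -0.59 ± 0.22 (SE; limma adjusted p = 0.565). Acta1, skeletal alpha-actin, differed by -0.45 ± 0.22 (SE; limma adjusted p = 0.691), and Xirp2, an actin-binding repeat protein of the intercalated disc, by -0.45 ± 0.18 (SE; limma adjusted p = 0.618). Among the genes with higher means was Actn1, the non-muscle alpha-actinin, at 0.48 (0.26 without RVF+ 8). The myosin heavy chains did not separate. Myh7, the slow isoform, differed by -0.08 (0.01 without RVF+ 8), and Myh6, the fast isoform, by -0.56 with RVF+ 8 at 9.54 and by -0.16 without it.

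Glucocorticoid response genes had higher means in RVF+ in 17 of 23 genes, and 8 were higher at an unadjusted limma p under 0.05, beside 2.94% of all genes. Fkbp5, a co-chaperone of the glucocorticoid receptor that the receptor itself induces, read 8.68, 8.17, 7.89, 7.42 and 7.39 in RVF+ and 6.96, 6.94, 6.62 and 7.15 in RVF. All RVF+ arrays were above all RVF arrays. The difference was 0.99 ± 0.20 (SE; limma adjusted p = 0.382), or 1.99-fold, and 0.80 ± 0.16 without RVF+ 8. Against CON, at 6.61 ± 0.17 (SD, n = 7), Fkbp5 rose by 1.30 in RVF+ (limma adjusted p = 4.28e-05), and the RVF difference was 0.31 (adjusted p = 0.296).

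Zbtb16, a zinc finger repressor also known as PLZF, read 8.35, 9.34, 9.15, 8.07 and 7.99 in RVF+ and 7.95, 7.77, 7.29 and 7.74 in RVF. The groups touched closely at RVF+ 12 and RVF 13, and the difference was 0.89 ± 0.24 (SE; limma adjusted p = 0.403). In RVF+ it rose against CON by 0.91 (limma adjusted p = 0.00347), beside 0.02 in RVF. Sult1a1, a phenol sulfotransferase, had the largest difference of the list, 1.04 ± 0.32 (SE; limma adjusted p = 0.437). Its RVF+ values were 7.71, 8.50, 9.17, 8.23 and 7.01 and its RVF values 7.37, 7.24, 6.32 and 7.40, so RVF+ 12 was below 3 of the 4 RVF arrays. Pik3r1, the regulatory subunit of PI3-kinase, differed by 0.34 ± 0.12 (SE; limma adjusted p = 0.529) and fell against CON in RVF by 0.51 (limma adjusted p = 0.00332).

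A further 3 genes were chosen from that list after their values were seen: Sgk1, Tsc22d3 and Nr3c1. Sgk1, a kinase induced by glucocorticoids and aldosterone, differed by 0.43 ± 0.15 (SE; limma adjusted p = 0.533), and Tsc22d3, the glucocorticoid-induced leucine zipper, by 0.48 ± 0.19 (SE; limma adjusted p = 0.608). Nr3c1, the receptor itself, was the 1 member lower at an unadjusted p under 0.05, at -0.20 ± 0.08 (SE; limma adjusted p = 0.63). The list mean per array, set against CON, was 0.47, 0.48, 0.66, 0.21 and -0.04 on RVF+ 8 to 12 and 0.08, 0.08, -0.11 and 0.12 on RVF 13 to 16. RVF+ 12 was the array that overlapped. Ndrg1, a stress- and hypoxia-responsive gene kept on the angiogenesis and hypoxia list, read 8.72, 8.82, 8.42, 8.22 and 7.90 in RVF+ and 7.86, 7.47, 7.73 and 7.66 in RVF. It was separated, with a difference of 0.73 ± 0.15 (SE; limma adjusted p = 0.382).

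Red cell genes had higher means in RVF+ in 15 of 16 genes, and 9 were higher at an unadjusted limma p under 0.05, beside 2.94% of all genes. Rhag, a Rhesus-associated glycoprotein, was the 1 separated member (0.33 ± 0.08, SE), at a dim level of 3.16 to 3.71. Over all genes 0.586% were separated higher. The promoters of Alas2 and Rhd are printed because their list had the largest median difference of the 53. Both are among the 4 red cell genes found to hold the motif below. The promoter of Lgals5, a reticulocyte gene outside the list, is printed because its arrays were separated. Only promoters that hold the motif are printed. The choice was made after the values were seen, and the capitals mark the motif AGATAA, the letters read by GATA factors such as the erythroid GATA1, on either strand. They are the 250 bases before the annotated start, 5′ to 3′ on the gene's strand, from RefSeq on build GRCr8, at chrX:22895200-22895449 (+) for Alas2, chr5:152370950-152371199 (+) for Rhd and chr10:64355138-64355387 (-) for Lgals5, where the match is TTATCT, the reverse complement.
Alas2: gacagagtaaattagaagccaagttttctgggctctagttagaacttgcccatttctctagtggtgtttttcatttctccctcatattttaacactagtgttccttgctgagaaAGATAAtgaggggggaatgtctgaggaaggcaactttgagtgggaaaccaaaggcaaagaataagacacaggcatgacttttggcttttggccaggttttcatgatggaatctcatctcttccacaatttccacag
Rhd: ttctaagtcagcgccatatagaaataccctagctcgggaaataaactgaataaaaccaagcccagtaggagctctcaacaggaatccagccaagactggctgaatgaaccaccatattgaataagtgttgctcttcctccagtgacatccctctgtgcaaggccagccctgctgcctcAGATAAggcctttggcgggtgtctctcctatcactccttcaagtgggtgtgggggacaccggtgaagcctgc
Lgals5: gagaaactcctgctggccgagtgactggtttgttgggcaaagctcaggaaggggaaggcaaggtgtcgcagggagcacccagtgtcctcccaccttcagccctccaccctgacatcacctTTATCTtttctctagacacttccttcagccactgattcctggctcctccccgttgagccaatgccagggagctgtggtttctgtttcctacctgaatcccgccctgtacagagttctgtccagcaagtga
The first base of the match lies 136 bases before the start in Alas2, 72 in Rhd and 130 in Lgals5. Among the 16 red cell genes, 13 had a promoter in the table and 4 of those held AGATAA, Alas2, Hemgn, Rhd and Sptb, against 10.3% of all 33469 promoters. The 4 are genes with a match in any of their promoters (14 in all), while the 10.3% is a share of single promoters. Of the 4, Sptb had a lower mean in RVF+. A match describes the letters in the window and is not evidence of a bound site.

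Ahsp, which stabilises free alpha globin, had the largest difference of the list. It read 6.11, 6.51, 7.03, 6.43 and 4.98 in RVF+ and 5.32, 4.66, 4.03 and 3.59 in RVF. RVF+ 12 was the array that overlapped, and the difference was 1.81 ± 0.50 (SE; limma adjusted p = 0.403), or 3.51-fold. Hemgn, a nuclear protein of erythroid cells, differed by 1.00 ± 0.31 (SE; limma adjusted p = 0.439) and Rhd, the Rhesus blood group protein, by 0.85 ± 0.26 (SE; limma adjusted p = 0.439). In RVF+ these 3 genes rose against CON, by 1.56, 1.44 and 1.28 (limma adjusted p = 0.0119, 0.000623 and 0.000493), and in RVF none of them passed (adjusted p = 0.774, 0.321 and 0.267).

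Alas2, the first enzyme of haem synthesis in red cells, and the beta globin gene Hbb were picked after their values were seen. Alas2 read 7.61, 8.52, 9.40, 8.14 and 7.05 in RVF+ and 8.12, 6.52, 7.43 and 6.61 in RVF, and Hbb differed by 0.57 ± 0.25 (SE; limma adjusted p = 0.647). RVF 13 was high and RVF+ 12 low in both. Near-identical globin copies can share probes, so Hbb stands for the family. Sptb, a spectrin that other tissues also make, was the 1 gene with a lower mean (-0.19, and -0.09 without RVF+ 8). Lgals5, a galectin of rat reticulocytes that was not on the list, read 6.55, 7.76, 7.84, 7.36 and 6.43 in RVF+ and 6.42, 5.98, 6.13 and 5.73 in RVF. It was separated, narrowly at RVF+ 12, with a difference of 1.13 ± 0.28 (SE; limma adjusted p = 0.403) and of 1.29 without RVF+ 8. The mean of the 4 measured red cell markers ranged from 7.19 to 9.13 in RVF+, 6.60 to 8.01 in RVF and 6.56 to 7.33 in CON. Blood left in the tissue and transcripts per red cell were not measured apart.

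Endothelial markers had higher means in RVF+ in 14 of 21 genes, and in 17 of 21 without RVF+ 8, when 47.1% of all genes had a higher and 52.9% a lower mean. At an unadjusted limma p under 0.05, 2 were higher and 2 lower, beside 2.94% and 4.26% of all genes. Without RVF+ 8 there were 9 higher and 2 lower, beside 3.6% and 4.31%. Vwf, the clotting factor stored in endothelial cells, read 8.94, 9.20, 9.51, 8.98 and 8.18 in RVF+ and 8.60, 8.01, 8.29 and 7.95 in RVF. RVF+ 12 fell among the RVF arrays, and the difference was 0.75 ± 0.20 (SE; limma adjusted p = 0.403). Lyve1, a hyaluronan receptor of lymphatic endothelium and of some tissue macrophages, differed by 0.74 ± 0.19 (SE; limma adjusted p = 0.403), with RVF 16 at 9.39 above RVF+ 12 at 9.10. Both genes rose against CON in RVF+, by 1.08 and 1.10 (limma adjusted p = 0.000188 and 0.000139), and did not pass in RVF (adjusted p = 0.253 and 0.197). Lower at an unadjusted p under 0.05 were the semaphorin and VEGF co-receptors Nrp1 (-0.34 ± 0.10, SE) and Nrp2 (-0.23, named after its value was seen). The apelin receptor gene Aplnr (-0.84 ± 0.25, SE) and the endothelial gene Esm1 (-0.66 ± 0.21, SE) were also lower in RVF+, with overlapping arrays. Without RVF+ 8 they stood at -0.55 and -0.46. The lowest and highest mean of the 4 measured endothelial cell type markers was 8.45 and 9.03 in RVF+ and 8.25 and 8.58 in RVF.

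Ace, the endothelial enzyme that makes angiotensin II, read 7.72, 7.73, 7.95, 7.07 and 6.37 in RVF+ and 6.79, 6.66, 6.61 and 6.61 in RVF. RVF+ 12 was the lowest of all 9 arrays and the other RVF+ arrays were above all RVF arrays. The difference was 0.70 ± 0.22 (SE; limma adjusted p = 0.468), and 0.95 ± 0.15 without RVF+ 12 (limma adjusted p = 0.0376). Ramp3, which turns the calcitonin receptor-like receptor into an adrenomedullin receptor, split the RVF+ group. It read 6.60, 6.81 and 6.84 on RVF+ 8, 9 and 10 but 4.78 and 5.08 on RVF+ 11 and 12, beside 4.55 to 4.81 in RVF. The difference of the means was 1.30 ± 0.34 (SE; limma adjusted p = 0.403).

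The nucleoside transporters went opposite ways. Slc28a2, which brings purine nucleosides into the cell with sodium, read 9.62, 9.38, 9.53, 9.11 and 8.93 in RVF+ and 8.85, 8.41, 8.66 and 8.74 in RVF. Slc29a1, the equilibrative adenosine transporter, read 7.61, 7.84, 7.85, 7.92 and 7.85 in RVF+ and 8.16, 8.16, 8.23 and 8.04 in RVF. Both genes were separated, with differences of 0.65 ± 0.13 (SE; limma adjusted p = 0.382) and -0.33 ± 0.08 (SE; limma adjusted p = 0.403). A second probe set of Slc28a2 gave 0.63. Slc28a2 rose against CON in RVF+ (0.78, limma adjusted p = 5.85e-05), and Slc29a1 rose in RVF (0.42, adjusted p = 0.000466).

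Macrophage and monocyte markers had higher means in RVF+ in 21 of 24 genes, and in 14 of 24 without RVF+ 8. The list mean of RVF+ 8 was 2.20 above CON, against 0.64 to 1.00 on the other RVF+ arrays and 0.57 to 0.85 in RVF. Cathepsin S (Ctss), a lysosomal protease, was at 10.27 on RVF+ 8 and 8.59 to 9.07 on the other RVF+ arrays, beside 8.33 to 8.68 in RVF. Cd163, the haemoglobin scavenger receptor, was higher in RVF+ with or without that array, at 0.73 ± 0.26 (SE; limma adjusted p = 0.542) and 0.71. Vsig4, a complement receptor of tissue macrophages, was the 1 member separated higher, at a dim level (2.99 to 4.51), beside 0.586% of all genes. Adgre1, the gene of the F4/80 antigen, read 7.64 on RVF+ 8, 6.47, 6.59, 6.46 and 6.75 on RVF+ 9 to 12 and 7.05, 7.02, 6.96 and 6.93 in RVF. Without RVF+ 8 the groups of Adgre1 were apart in the lower direction, with a difference of -0.42 ± 0.08 (SE; limma adjusted p = 0.172), against -0.21 with it.

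Cell cycle genes had higher means in RVF+ in 36 of 39 genes, but in 9 of 39 without RVF+ 8. On RVF+ 8 the list mean was 2.41 above CON, on the other RVF+ arrays 0.21 to 1.00, and in RVF 0.64 to 0.83. Mki67, the proliferation marker, read 8.96, 6.43, 6.68, 5.73 and 6.97 in RVF+ and 6.55, 6.59, 6.68 and 6.57 in RVF. Its difference was 0.36, and -0.15 without RVF+ 8. The D-type cyclins, which start the cycle and also act in cell growth, were lower in RVF+ in either case. Ccnd1 read 8.84, 8.69, 8.44, 8.30 and 9.32 in RVF+ and 9.40, 9.20, 9.08 and 9.28 in RVF, with a difference of -0.52 ± 0.15 (SE; limma adjusted p = 0.434), RVF+ 12 being the array that overlapped. Ccnd2 differed by -0.47 ± 0.16 (SE; limma adjusted p = 0.529). Both rose over CON in each group, Ccnd1 by 0.44 in RVF+ and 0.96 in RVF (limma adjusted p = 0.0213 and 0.00017).

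**Figure D5:**
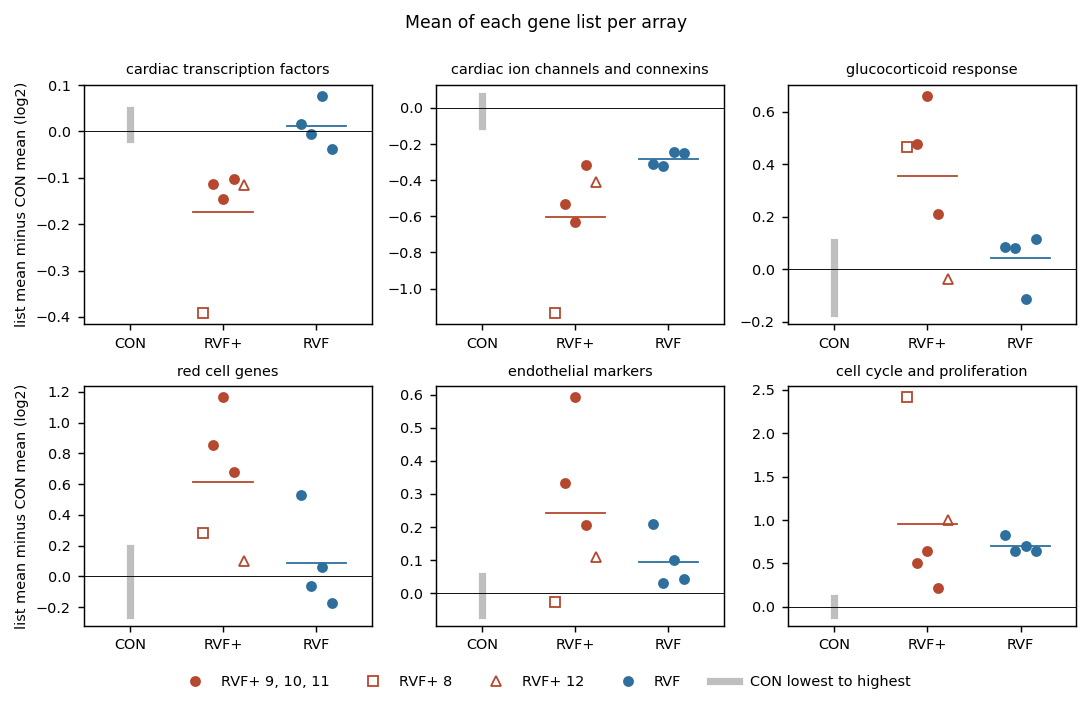
Mean over the genes of a list on each array minus the mean of the CON arrays (log2, vertical) for 6 lists; points are arrays, RVF+ 8 an open square, RVF+ 12 an open triangle, lines group means, the grey bar the span of the CON arrays. Only the transcription factor list has no overlap between RVF+ and RVF, and RVF+ 8 is far from the rest for cell cycle genes (2.41) and ion channels (-1.14).

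Mitochondrial genes were low on RVF+ 8. The respiratory chain and ATP synthase list had lower means in RVF+ in 39 of 40 genes, with a median of -0.14, but in 18 of 40 without RVF+ 8, with a median of 0.01. The tricarboxylic acid cycle list had medians of -0.19 and -0.06. Of the 40 respiratory chain genes 1 was separated lower, Cyc1 of complex III (-0.32, and -0.14 without RVF+ 8). Of the 24 tricarboxylic acid cycle genes 1 was, Ogdh, the 2-oxoglutarate dehydrogenase (-0.33 and -0.18). The fatty acid list had medians of -0.07 and 0.02, and 1 of its 31 genes was separated lower, Acads of short-chain oxidation (-0.37 and -0.20). Over all genes 1.15% were separated lower. The mitochondrial ribosomal protein and branched-chain amino acid lists had no separated member. Cyc1 read 9.82 on RVF+ 8, 10.55 to 10.78 on the other RVF+ arrays and 10.80 to 10.84 in RVF. In the glycolysis list Gys1, the muscle glycogen synthase (-0.42 and -0.22), and Aldoa, an aldolase named after its value was seen (-0.17 and -0.06), were separated. Perm1, a muscle regulator of mitochondrial genes, overlapped, at -0.55 ± 0.26 (SE) and -0.23 without RVF+ 8.

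Matrix genes had a median difference of 0.00 between RVF+ and RVF, with 19 of 37 genes higher, and without RVF+ 8 the median was -0.098 with 14 higher and 23 lower. Against CON, 32 of the 37 rose in RVF+ and 26 in RVF (adjusted limma p under 0.05), where 14.1% and 8.86% of all genes rose. Fn1, fibronectin, was the 1 separated member, beside 0.586% of all genes separated higher. It read 10.68, 9.88, 10.24, 9.63 and 9.56 in RVF+ and 9.41, 9.54, 9.18 and 9.35 in RVF, narrowly apart at RVF+ 12 and RVF 14. The difference was 0.63 ± 0.17 (SE; limma adjusted p = 0.403), and 0.46 without RVF+ 8. Fn1 rose over CON by 1.73 in RVF+ and 1.10 in RVF (limma adjusted p = 8.43e-07 and 0.000135). Tgfbi, a TGF-beta-induced matrix protein, was separated at 0.76 (0.40 without RVF+ 8, which read 9.04). Thbs2, a matricellular thrombospondin, was higher in RVF+ by 0.40 ± 0.13 (SE; limma adjusted p = 0.504), and Cilp, a matrix protein that restrains TGF-beta, lower by 0.70, both with overlap.

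Growth factors differed in both directions. Tgfb3 read 8.32, 8.72, 8.62, 8.71 and 8.56 in RVF+ and 8.96, 9.01, 8.91 and 9.02 in RVF, which was separated, with a difference of -0.39 ± 0.11 (SE; limma adjusted p = 0.434). Tgfb2 was separated without RVF+ 8 alone, at -0.61 (-0.45 with it), and rose over CON by 2.11 in RVF+ and 2.56 in RVF (limma adjusted p = 5.35e-07 and 3.28e-07). Fgf16, a growth factor of heart muscle, was lower in RVF+ by 0.62 ± 0.19 (SE; limma adjusted p = 0.437), with RVF+ 12 at 7.87 among the RVF arrays. Fgf23, the phosphate-regulating hormone, was higher in RVF+ by 0.83 ± 0.30 (SE; limma adjusted p = 0.569), and Igf2, insulin-like growth factor 2, by 0.90 ± 0.28 (SE; limma adjusted p = 0.454) with RVF+ 10 at 8.79. The Wnt receptor Fzd2 differed by -0.57 ± 0.14 (SE; limma adjusted p = 0.403), with RVF+ 8 at 6.67 above RVF 13 at 6.62.

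Several genes outside the lists were among the 10 lower in RVF+ with the smallest p at or above the median level. Samd4a, a translational repressor that binds RNA, read 7.89, 7.96, 7.71, 8.07 and 8.26 in RVF+ and 8.35, 8.61, 8.51 and 8.32 in RVF. It was separated, with a difference of -0.47 ± 0.10 (SE; limma adjusted p = 0.403), and rose over CON in RVF (0.66, limma adjusted p = 9.5e-05). Grb14, an adaptor that binds the insulin receptor, differed by -0.49 ± 0.11 (SE; limma adjusted p = 0.403). Cited4, a transcriptional coactivator, was separated at -0.93 ± 0.21 (SE; limma adjusted p = 0.403), with the CON mean of 6.60 between the RVF+ mean of 6.15 and the RVF mean of 7.08. Without RVF+ 8 the Cited4 difference was -0.77.

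The Reg3 secreted lectins had the widest spread. Reg3b read 11.54, 9.07, 8.52, 4.85 and 8.43 in RVF+ and 7.02, 5.05, 5.70 and 8.77 in RVF. The highest and the lowest of these 9 values were both from RVF+ arrays. The difference of 1.84 ± 0.92 (SE; limma adjusted p = 0.708) was within that spread, and it was 1.08 without RVF+ 8. Reg3g differed by 1.45 ± 0.69 (SE; limma adjusted p = 0.692), with RVF+ 11 at 7.22 below all RVF arrays.

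With both RVF+ 8 and RVF+ 12 left out, a setting singled out after these 2 arrays were seen to lie apart, 60 genes passed the adjusted limma threshold higher in RVF+ and 60 lower. Of 87 genes described or named here, with Aplnr and Esm1 not counted, 26 were among them, beside 60 higher and 60 lower of all 17245 genes. Many of the 87 were named for a small p or for separation on these arrays, so a larger share is built in. The 26 included Fkbp5 (0.91), Zbtb16 (1.17), Sult1a1 (1.55), Hemgn (1.44), Lgals5 (1.59) and Vwf (1.02) in the higher direction, and Myocd (-0.57), Hcn4 (-1.28), Cacna1a (-0.63), Synpo2l (-0.66), Gdf15 (-0.91) and Adgre1 (-0.48) in the lower. With 3 RVF+ arrays chosen in this way the counts describe these arrays and are not a test of the conditions.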

How the data were processed

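RNA of 16 rat right ventricles was measured on single-colour expression arrays. The deposited table holds linear intensities that the authors summarised with RMA (robust multi-array averaging: background correction, quantile normalization and summary of probes), per the submitters' processing notes. The sources used here give no software version, array annotation or build. Quantile normalization gives the arrays nearly equal distributions, so a shift common to all genes cannot be seen. Values were taken to log2. Of 29214 probe sets, 18644 had 1 symbol, 962 had several and 9608 were unnamed here; 17245 genes were kept, each by its probe set with the highest mean. The lowest array median was 27.1 and the highest 29.3.

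Group means of all 16 arrays were fitted with limma 3.58.1 in R 4.3.3 (13 residual and 4.45 prior degrees of freedom), contrast RVF+ minus RVF, two-sided, with Benjamini-Hochberg adjustment, and again without RVF+ 8. The fit was tested on simulated data before use. Named genes are those with the smallest p or the largest difference among separated genes, 4 per list by smallest p, and a fixed set; 262 genes met the rule, and exceptions are stated in the text. The arrays, genes and 53 lists (1201 of 1348 genes measured) were chosen with earlier results of these data known, so lists are described and not tested. Alternatives were normalization, filters on dim genes, probe set choice, arrays in the fit, moderation, array weights, a minimum fold and leaving out each array.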

Additional observations from a re-analysis of the deposited data

Results flagged for a closer look

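In 20 of 200 checks of a group of 4 or 5 arrays, over the genes and lists described (Aplnr and Esm1 aside), 1 array lay far from the others by Dixon's criterion. Chance alone gives about 1 in 20 for independent checks. These checks share the same arrays, and many of the genes were picked by their values on them, so the count was not tested against that rate. RVF+ 8 was that array in 13. It was the lowest of its group for Abcc8 (5.91), Myh6 (9.54), Slc29a1 (7.61), Cyc1 (9.82), Gys1 (7.54) and Aldoa (10.85). It was the highest of its group for Ctss (10.27), Adgre1 (7.64) and Tgfbi (9.04). Set against CON on the log2 scale, the list means of RVF+ 8 stood at -1.03 for the tricarboxylic acid cycle, -0.96 for the respiratory chain, -0.39 for cardiac transcription factors and 2.20 for macrophage markers.

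Among the other RVF+ arrays, RVF+ 11 was lowest for Nppa (11.53) and RVF+ 10 highest for Igf2 (8.79). In the RVF group, RVF 13 was highest for Tpm3 (9.69), RVF 15 lowest for Sult1a1 (6.32) and RVF 16 lowest for Zfp365 (5.15), a zinc finger gene. RVF 15 also had the highest sarcomere list mean of its group (-0.030) and the lowest glucocorticoid response mean (-0.11).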

How the results depend on the processing

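No gene was called in the 5 against 4 comparison under any alternative but 1. The calls were 0 with each array left out except RVF+ 12, whose removal gave 3. Starting without RVF+ 8, a further array left out gave 0 to 120 calls: 120 without RVF+ 12, 2 (Hcn4 and Zfp365, lower) without RVF 16 and 0 otherwise. The 3 calls without RVF+ 12 were made with 4 RVF+ arrays and the 120 with 3. At an unadjusted p under 0.05, a fit on the 9 arrays alone gave 804 genes against 1242, and without RVF+ 8 the count over a further array left out ranged from 1047 to 2087, against 1365. With genes dimmer than the median left out, 40 were separated higher, against 101. Leaving out 1 array gave 166 to 311 genes separated higher and 274 to 578 lower; apart from RVF+ 8, these were added after the data were seen, and fewer arrays separate more easily by construction. Of 1555 recomputed differences of the same 87 genes, 6 changed sign: Mki67 with array weights (-0.075) and, over arrays left out, Mki67 (-0.15 to 0.66), Nppb (-0.13 to 0.041), Myh7 (-0.13 to 0.0086) and Kcnj5 (-0.029 to 0.27). The cause was not tested.

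No paired analysis was possible because RVF+ and RVF share no replicate numbers. Intensity does not show a signal over background, so dim genes such as Rhag and Vsig4 have the least certain differences.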
